A study of Mus musculus with 6 samples.

Results

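The genes described here are 7 transcripts that mark basophils and mast cells: the proteases Mcpt8, Prss34, Cpa3 and Tpsb2, the IgE receptor chains Fcer1a and Ms4a2, and the histidine decarboxylase gene Hdc. They were chosen by name from the 24421 genes of a count table, all 7 had a row, and 6 of them had enough reads to be tested among 13803 genes. The table covers 6 libraries of polyadenylated RNA from femoral bone marrow of Dek -/- C57BL/6 mice, 3 from DEK-treated and 3 from vehicle-treated cells, numbered 1 to 3 in each group. Both groups lack Dek, which encodes a chromatin-binding protein that blood cells can release. In both, the marrow had been passed over columns that retain lineage-marked cells, and the fraction kept is enriched for progenitors. The labels give neither the age of the mice, nor the dose, source and length of the DEK treatment, nor whether libraries stem from different animals. The p-values therefore measure only the spread between these libraries, which may be technical. The question in the title of the series is how transcripts of these cells differ after DEK is supplied from outside.

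Basophils and mast cells store histamine and proteases in granules and release them when antigen links IgE bound to their high-affinity receptor. Within that receptor, the alpha chain (Fcer1a) binds IgE, the beta chain (Ms4a2) amplifies the signal, and the gamma chain (Fcer1g), which other Fc receptors also use, passes it on. In the mouse, Mcpt8 and the tryptase Prss34 are best known from basophils, the tryptase Tpsb2 from mast cells of connective tissue, and the carboxypeptidase Cpa3 from mast cells, basophils and their progenitors. Hdc encodes the enzyme that makes histamine and is also used by immature cells of the neutrophil lineage in mouse marrow. Both lineages depend on transcription factors of the GATA family.

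The promoters are shown because 5 of the 7 genes kept nearly the same profile across libraries and Hdc did not. RefSeq windows of GRCm38.p6 matched 6 of the 7 genes; Tpsb2 was not matched. The 250 bases before each start site were searched on both strands for motifs of 4 factor families. The motifs of GATA factors were AGATAA or, in its other form, TGATAA, and variants that end in G were not searched. That of STAT factors was TTCNNNGAA. The E-boxes bound by MITF were written as CACGTG or, in the other form, as CATGTG. That of RUNX factors was TGTGGT, and no matches overlapped. The windows of 4 genes follow, 5′ to 3′ on the gene's own strand, with matches to AGATAA or its reverse complement in capitals. Cpa3 (chr3:20242182-20242431, minus strand) and Ms4a2 (chr19:11623720-11623969, minus strand) hold such matches, whereas Mcpt8 (chr14:56085198-56085447, minus strand) and Hdc (chr2:126618679-126618928, minus strand) hold none. The Hdc window does hold TGATAG, a variant that was not searched.
Cpa3: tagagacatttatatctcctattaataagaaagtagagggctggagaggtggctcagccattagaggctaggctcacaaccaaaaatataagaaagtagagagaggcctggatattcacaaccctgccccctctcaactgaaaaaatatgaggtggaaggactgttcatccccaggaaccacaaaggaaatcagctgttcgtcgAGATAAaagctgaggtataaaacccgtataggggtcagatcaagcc
Ms4a2: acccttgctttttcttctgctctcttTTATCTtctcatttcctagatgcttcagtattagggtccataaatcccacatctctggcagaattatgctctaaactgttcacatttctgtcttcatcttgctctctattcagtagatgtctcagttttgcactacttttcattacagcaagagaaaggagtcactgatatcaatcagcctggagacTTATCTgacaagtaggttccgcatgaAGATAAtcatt
Mcpt8: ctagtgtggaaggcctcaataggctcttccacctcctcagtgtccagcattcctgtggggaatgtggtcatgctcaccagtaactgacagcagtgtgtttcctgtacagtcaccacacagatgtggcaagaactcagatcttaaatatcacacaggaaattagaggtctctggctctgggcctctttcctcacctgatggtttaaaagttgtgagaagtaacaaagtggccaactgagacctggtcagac
Hdc: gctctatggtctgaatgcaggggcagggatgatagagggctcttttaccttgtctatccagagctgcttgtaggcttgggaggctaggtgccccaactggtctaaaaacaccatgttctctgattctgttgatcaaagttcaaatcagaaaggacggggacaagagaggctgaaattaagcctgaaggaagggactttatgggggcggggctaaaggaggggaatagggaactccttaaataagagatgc

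AGATAA was present in 4 of the 6 windows, those of Prss34, Cpa3, Fcer1a and Ms4a2, and in 9.99% of all 32851 promoter windows of the same length. Its first base lay 31 bases before the start site in Prss34 and 46 bases before it in Cpa3. In Fcer1a the match was on the opposite strand, 92 bases before the start. Ms4a2 had 3 matches, 224, 37 and 11 bases before the start, the last on the gene's own strand. TGATAA was in 0 of the 6 windows and in 7.94% of all windows. TGTGGT was in the windows of Mcpt8, Cpa3 and Fcer1a (14.0% of all windows) and CATGTG in those of Prss34 and Fcer1a (12.3%). CACGTG (6.02% of all windows) and TTCNNNGAA (7.02%) were in 0 of the 6. These are matches of letters, and no binding was measured.

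Basophil transcripts were abundant and those of mature mast cells nearly absent, in both groups. Levels are counts divided by the scaled library size (CPM), and comparisons between genes use CPM per kilobase of exon. Per kilobase, Mcpt8 stood highest and Prss34 next among the 7 genes in each of the 6 libraries. Mcpt8 averaged 749 ± 250.1 with DEK and 1127 ± 497 with vehicle (SD, n = 3 each), and its rank among all 24421 genes lay between 45 and 118 with DEK and between 26 and 88 with vehicle. Prss34 averaged 615 ± 227 with DEK and 775 ± 408 with vehicle per kilobase, so that the spread of both genes overlapped. Cpa3 followed at 160.3 ± 65.4 with DEK and 213 ± 96.8 with vehicle. Hdc stood at 159.5 ± 141 with DEK and 107.0 ± 32.5 with vehicle, Fcer1a at 77.7 ± 19.7 and 106 ± 45.3, and Ms4a2 at 37.6 ± 11.3 and 49.6 ± 16.5, in the same order of groups. The order of Cpa3, Hdc and Fcer1a was thus within their spread. It also depended on the library: Hdc ranked 3 of the 7 in both libraries numbered 3 and 5 of the 7 in the other 4.

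Tpsb2 (chromosome 17, 25366333 to 25368092, plus strand, mm10) was near the limit of detection. It had 3, 1 and 2 reads in DEK replicates 1, 2 and 3, against 16, 14 and 0 in vehicle replicates 1, 2 and 3. Summed over groups this was 6 reads (exact Poisson 95% interval 2.2 to 13.1) with DEK and 30 reads (20.2 to 42.8) with vehicle, intervals that cover counting error only, and a count of 0 allows up to 3 reads. The groups overlapped because vehicle replicate 3 had none. Too few libraries reached the minimum count for Tpsb2 to be tested; with no filter its adjusted p was 1 (edgeR). The related tryptase gene Tpsab1 had 2 to 7 reads per DEK library and 0 to 6 per vehicle library. The mast cell chymase genes were as scarce. Cma1 had 2 to 11 reads per DEK library and 1 to 14 per vehicle library. Mcpt4 had 1 read in total over the 6 libraries, in DEK replicate 2. Mcpt9 and Cma2 had 0 reads in each library, which allows up to 3 reads in each. Whether reads that fit more than 1 of the related tryptase genes were lost was not tested.

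Mcpt8 (chromosome 14, 56082164 to 56085197, minus strand) had 822, 656 and 406 CPM in DEK replicates 1, 2 and 3, against 1179, 1190 and 464 CPM in vehicle replicates 1, 2 and 3. The groups overlapped, because vehicle replicate 3 was as low as the DEK libraries. Its mean was 628 ± 210 CPM with DEK and 944 ± 416 CPM with vehicle (SD, n = 3 each), a log2 fold change of -0.59 ± 0.42 (SE). This did not pass (unadjusted p = 0.211, adjusted p = 1.0, edgeR). Prss34 (chromosome 17, 25298394 to 25300161, plus strand) had 926, 889 and 430.0 CPM in the DEK libraries, against 1214, 1244 and 371 CPM in the vehicle libraries. Here DEK replicate 3 was above vehicle replicate 3, and the log2 fold change was -0.33 ± 0.52 (SE).

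Cpa3 (chromosome 3, 20215616 to 20242181, minus strand) had 324.5, 239 and 135 CPM with DEK, against 375, 406 and 148.5 CPM with vehicle, in replicates 1, 2 and 3. The DEK library was the lower of the 2 in each replicate number, by little in number 3. The log2 fold change was -0.41 ± 0.46 (SE). The ratio of Cpa3 to Mcpt8 per kilobase ran from 0.192 to 0.228 in the DEK libraries and from 0.184 to 0.197 in the vehicle libraries.

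The IgE receptor chains showed the same picture. Fcer1a (chromosome 1, 173221271 to 173227229, minus strand) had 89.8, 92.9 and 56.5 CPM in the DEK libraries, against 125, 145 and 56.5 CPM in the vehicle libraries. Replicates 1 and 2 were lower with DEK and both libraries numbered 3 were alike. Ms4a2 (chromosome 19, 11615521 to 11623719, minus strand) had 142, 94.0 and 81.8 CPM with DEK, against 172, 160.3 and 86.4 CPM with vehicle. The log2 fold changes were -0.45 ± 0.38 for Fcer1a and -0.40 ± 0.32 for Ms4a2 (SE). Fcer1g, the gene of the shared gamma chain, had 768, 716 and 786.5 CPM in the DEK libraries, against 658, 790 and 781 CPM in the vehicle libraries, with no gap between groups and a log2 fold change of 0.03 ± 0.13 (SE; adjusted p = 1.0, edgeR).

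Hdc (chromosome 2, 126593660 to 126618678, minus strand) followed another course. It had 183.5, 191 and 773 CPM in DEK replicates 1, 2 and 3, against 206, 217 and 346 CPM in vehicle replicates 1, 2 and 3. Both libraries numbered 3 were the highest of their group, and DEK replicate 3 was far above all others. The mean was 383 ± 338 CPM with DEK and 257 ± 77.9 CPM with vehicle (SD, n = 3 each), with a log2 fold change of 0.58 ± 0.61 (SE; adjusted p = 1.0, edgeR). Without DEK replicate 3 the log2 fold change was -0.46 (adjusted p = 0.912, edgeR). Late neutrophil markers, 11 of 12 of which had a row, summed to 65030 CPM in DEK replicate 3 and 68000 CPM in vehicle replicate 3, against 6271 to 8256 CPM in the other DEK libraries and 6512 to 7018 CPM in the other vehicle libraries. The neutrophil sum was thus high in the same libraries as Hdc. Within number 3, where Hdc was 2.23 times higher with DEK, 7 of the 11 neutrophil markers were higher and 4 lower with DEK, with log2 differences from -0.35 (Ngp) to 0.43 (Cxcr2) and a median of 0.11. Their part in the level of Hdc was not tested.

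**Figure D1:**
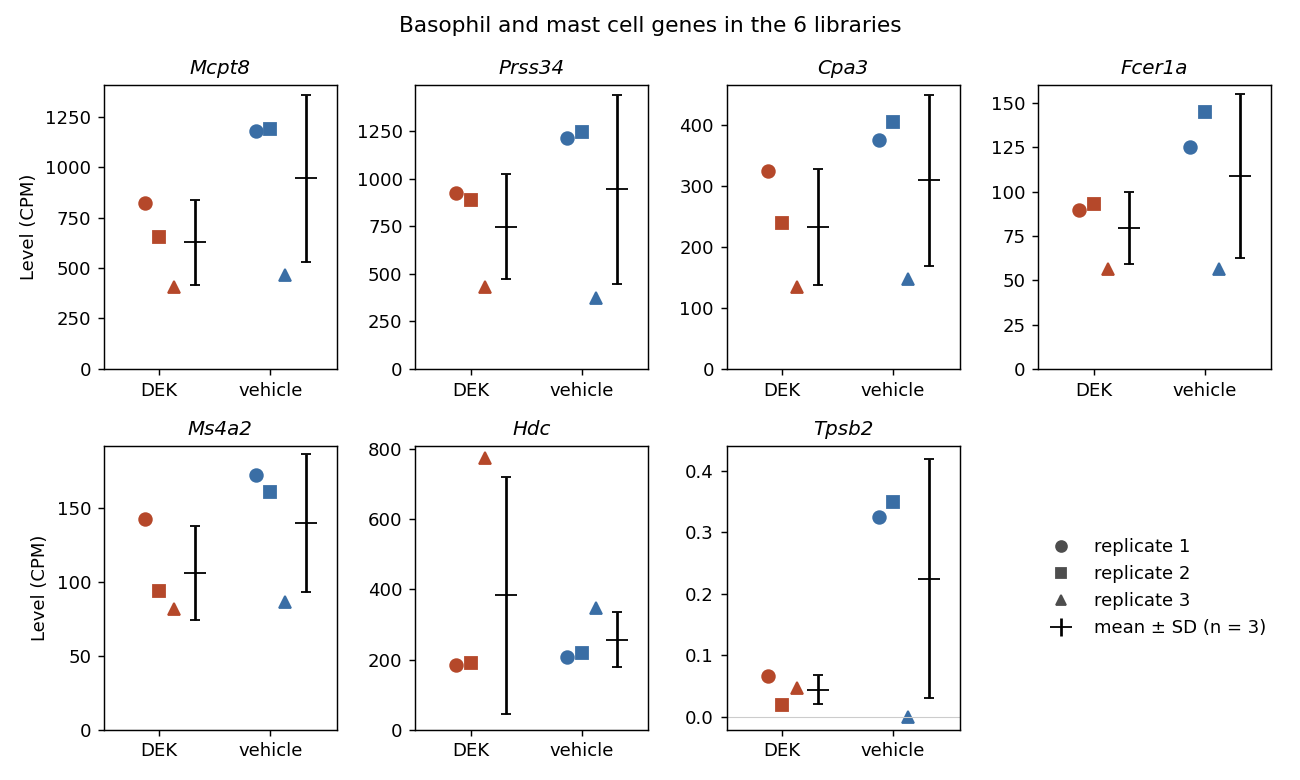
Level of each of the 7 genes in CPM (y axis, linear, a separate scale per gene) in DEK and vehicle libraries, with a marker per replicate number and the mean ± SD (n = 3) beside them. The libraries numbered 3 are lowest for Mcpt8, Prss34, Cpa3, Fcer1a and Ms4a2 in both groups and highest for Hdc, which reaches 773 CPM in DEK replicate 3.

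Taking all libraries without regard to replicate number, edgeR's quasi-likelihood test called 0 of the 6 genes, beside 0% of the 13803 genes tested. At an unadjusted p under 0.05 it gave 0 of the 6, beside 2.61% of all genes, and DESeq2 and limma-voom also called 0 of the 6. None of the 6 had groups that did not overlap, beside 7.19% of all genes. Below 0 were 5 of the 6 log2 fold changes, beside 49.5% of all genes, and the median of the 6 was -0.41, beside 0.00 over all genes.

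Equal replicate numbers deviated together (correlations of 0.55, 0.56 and 0.80 across genes), and values within replicate numbers are given as an alternative. DEK replicate 1 with vehicle replicate 2 reached 0.52, and DEK replicate 2 with vehicle replicate 1 reached 0.41. The correlations thus set number 3 apart, but give little ground for pairing 1 with 1 and 2 with 2. Fitted within replicate numbers, 0 of the 6 genes passed, beside 1.28% of all genes (177). Mcpt8 came nearest, with a log2 fold change of -0.53 ± 0.13 (SE; adjusted p = 0.0901, edgeR), and in the same fit with no filter on low counts it passed (adjusted p = 0.0152, edgeR), beside 0.72% of genes called lower. At an unadjusted p under 0.05 there were 4 lower genes of the 6 (Mcpt8, Cpa3, Fcer1a and Ms4a2), beside 5.42% of all genes. The adjusted p was 0.241 for Fcer1a, 0.259 for Cpa3, 0.27 for Ms4a2, 0.591 for Prss34 and 0.866 for Hdc (edgeR).

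The difference was seen in replicate numbers 1 and 2. In number 2 the log2 difference, DEK minus vehicle, was -0.86 for Mcpt8, -0.77 for Ms4a2, -0.76 for Cpa3, -0.64 for Fcer1a and -0.49 for Prss34. In number 1 it was -0.52 for Mcpt8, -0.48 for Fcer1a, -0.39 for Prss34, -0.28 for Ms4a2 and -0.21 for Cpa3. In number 3 the same 5 genes lay between -0.19 (Mcpt8) and 0.21 (Prss34). For Hdc the log2 difference was -0.17, -0.18 and 1.16 in numbers 1, 2 and 3.

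**Figure D2:**
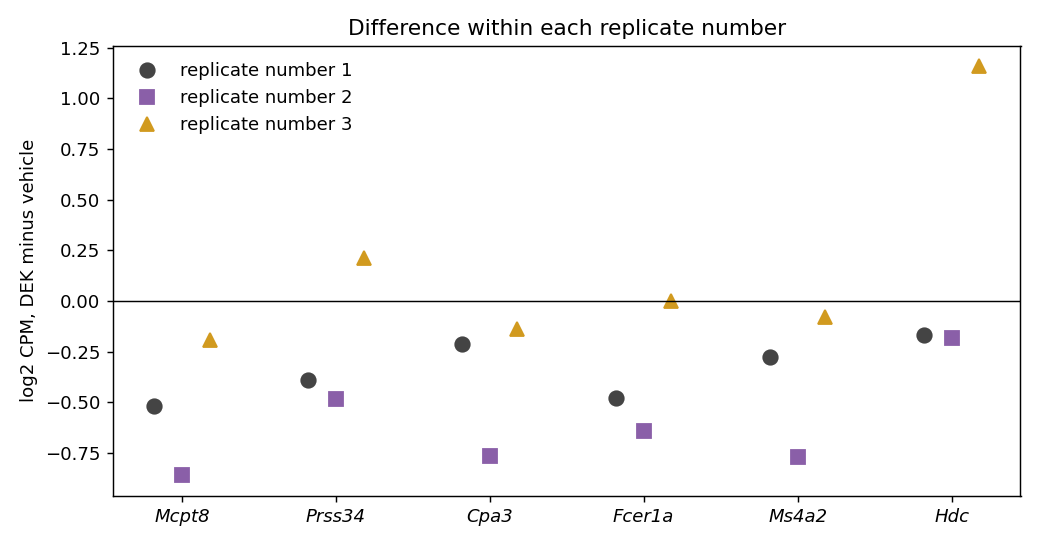
Difference in log2 CPM, DEK minus vehicle, within each replicate number (y axis) for the 6 genes tested. For Mcpt8, Prss34, Cpa3, Fcer1a and Ms4a2, numbers 1 and 2 lie below 0 and number 3 near it; Hdc in number 3 stands at 1.16.

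With both libraries numbered 3 left out, a choice that turns on libraries already seen to stand apart, 5 of the 6 genes fell within replicate numbers 1 and 2 (edgeR), beside 2.27% of 13809 genes that fell. Mcpt8 fell 1.61-fold (log2 fold change -0.69 ± 0.13, SE; adjusted p = 2.02e-05, edgeR), Fcer1a 1.48-fold (-0.56 ± 0.12; adjusted p = 0.00023) and Ms4a2 1.44-fold (-0.52 ± 0.12; adjusted p = 0.000785). Cpa3 fell 1.40-fold (-0.49 ± 0.13; adjusted p = 0.00467) and Prss34 1.35-fold (-0.44 ± 0.14; adjusted p = 0.0299). Hdc did not pass (-0.18 ± 0.12; adjusted p = 0.557). Tpsb2 also passed there (adjusted p = 0.0495, edgeR), but it met the minimum count through the vehicle libraries alone and had to differ, so it is not counted. Without the replicate numbers in the fit, the same 4 libraries gave calls for Mcpt8 and Fcer1a (adjusted p = 0.0403 and 0.0483, edgeR), beside 0.543% of genes called lower. The unadjusted p of Mcpt8 was 2.35e-07 with the numbers in the fit and 0.000416 without them (edgeR). The very small p-values with the numbers, here and below, rest largely on spread estimated across all genes. Without number 1, 0 of the 6 passed, beside 0.266% of genes called lower. Without number 2, 0 of all 14013 genes were called lower (0%), so the 0 of the 6 there says nothing about these genes (edgeR). The log2 fold changes in that fit were -0.35 for Mcpt8, -0.23 for Fcer1a, -0.17 for Ms4a2, -0.16 for Cpa3 and -0.08 for Prss34. Each of these 5 was smaller in size than in the fit within all replicate numbers, while that of Hdc was 0.51.

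Whether the difference itself varied between number 3 and numbers 1 and 2 was fitted as an interaction over all genes, a test added after these values had been seen, whose error rests on replicates 1 and 2. It called 0 of the 6, beside 0% of all genes, and 3 of the 6 (Hdc, Prss34 and Fcer1a) had an unadjusted p under 0.05, beside 7.46% of all genes. For Hdc the interaction was 1.34 ± 0.19 on the log2 scale (SE; adjusted p = 0.0534, edgeR), for Prss34 0.65 ± 0.19 (adjusted p = 0.329) and for Mcpt8 0.49 ± 0.23 (adjusted p = 0.707). The other 3 genes lay between 0.33 and 0.56. The interaction was above 0 for each of the 6 genes, and a difference between the replicate numbers was not established.

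Summed over the 7 genes, the level was 2488, 2161 and 1882 CPM in DEK replicates 1, 2 and 3, against 3272, 3363 and 1472 CPM in vehicle replicates 1, 2 and 3. The DEK libraries were lower in numbers 1 and 2 and higher in number 3, where Hdc made up the excess. Without Hdc, the sums were 2304, 1970 and 1109 CPM with DEK, against 3066, 3146 and 1126 CPM with vehicle. Hdc held 7.38%, 8.84% and 41.1% of the reads of the 7 genes in the DEK libraries, against 6.31%, 6.46% and 23.5% in the vehicle libraries. As a share of all counts, the 7 genes took 0.262%, 0.223% and 0.169% with DEK and 0.33%, 0.353% and 0.142% with vehicle. Wilson 95% intervals of these shares reached from 0.168 to 0.264% over the DEK libraries and from 0.141 to 0.355% over the vehicle libraries and cover counting error only. In bulk RNA, fewer cells of a type and less RNA per cell cannot be told apart.

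**Figure D3:**
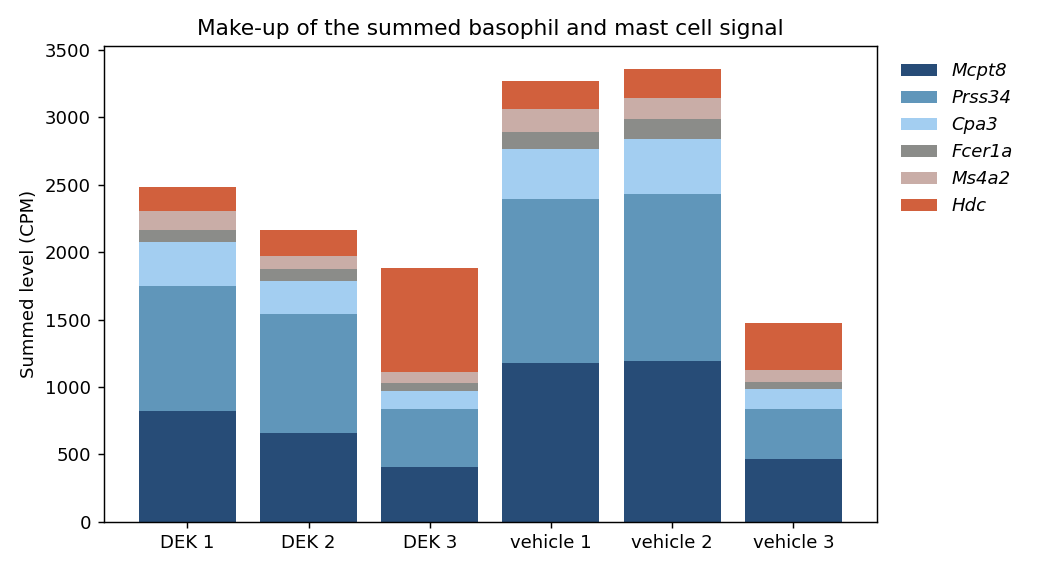
Stacked bars of the level in CPM (y axis) of 6 of the genes in each library (x axis), DEK libraries first; Tpsb2, under 1 CPM in each library, is not drawn. The bars without Hdc reach 2304, 1970 and 1109 CPM in DEK replicates 1 to 3 and 3066, 3146 and 1126 CPM in vehicle replicates 1 to 3.

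Among themselves, the 5 genes other than Hdc kept close profiles. The root mean square distance between centred log2 CPM profiles over the 6 libraries was 0.11 for Mcpt8 and Cpa3, the closest pair, and at most 0.37 (Prss34 and Ms4a2). Hdc stood 1.08 to 1.34 from each of the others. The 5 genes whose profile was closest to the mean of the 6 tested, among 12103 other genes of at least 1 CPM, were Fam171a1, Slc16a7, Lpin1, Hgf and S1pr1, at distances of 0.06 to 0.08. With Hdc left out of the mean, a choice made after its values were seen, the closest were 1110038B12Rik, Krt18, Rora, Ispd and Cd200r3, at 0.07 to 0.08. The 5 genes themselves stood 0.08 (Mcpt8) to 0.20 (Ms4a2) from that mean, no nearer than those. A close profile was thus not particular to the 5 genes. Cd200r3 encodes an activating receptor of basophils and mast cells. It had 40.9, 32.5 and 19.7 CPM in the DEK libraries, against 45.5, 48.6 and 20.3 CPM in the vehicle libraries, and did not pass (adjusted p = 0.441, edgeR within replicate numbers). All of these profiles but that of Hdc share the low libraries numbered 3. For the 5 genes other than Hdc, those libraries were lower than the mean of the other 2 of their group. The log2 difference was 0.50 (Ms4a2) to 1.08 (Prss34) with DEK and 0.94 (Ms4a2) to 1.73 (Prss34) with vehicle.

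The wider pathways were described with 5 lists, of which 63 of 75 genes were tested. Within replicate numbers 2 of the 63 fell and 0 rose, beside 0.413% of all genes that fell and 0.869% that rose, and without the numbers 0 passed by edgeR, 2 had an unadjusted p under 0.05, DESeq2 called 1 and limma-voom 0. At an unadjusted p under 0.05 within replicate numbers, 8 of the 63 were lower, beside 5.42% of all genes, and 7 were higher, beside 6.03%. These 15 were spread over the lists as 2 of the protease and granule genes, 2 of the IgE signalling genes, 6 of the receptors, 1 of the mediators and 4 of the transcription factors. The median log2 fold change of the 63 was -0.07 without the numbers.

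Of the genes in the protease clusters and of granule storage, 9 of 19 were tested and 0 passed. Of the 9 log2 fold changes, 8 were below 0, beside 49.5% of all genes, with a median of -0.27. The smallest p within replicate numbers belonged to Gzmb, the granzyme B gene of the chymase cluster on chromosome 14, with 19.6, 14.2 and 9.84 CPM in the DEK libraries, against 29.8, 26.9 and 9.35 CPM in the vehicle libraries. Its log2 fold change within replicate numbers was -0.51 ± 0.18 (SE; adjusted p = 0.316, edgeR), and in numbers 1 and 2 alone it fell 1.70-fold (adjusted p = 2.33e-05, edgeR). Slc18a2, the transporter that loads histamine into granules, had 43.3, 29.1 and 30.6 CPM with DEK, against 50.2, 47.5 and 30.4 CPM with vehicle (adjusted p = 0.433, edgeR within replicate numbers). It, too, was lower with DEK in numbers 1 and 2 and alike in number 3.

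Of 15 genes that carry the signal of the IgE receptor, 0 passed and the median log2 fold change was 0.03, with 8 above 0 and 7 below. Prkcd, a protein kinase C, and Lcp2, an adaptor, had the smallest p within replicate numbers, with log2 fold changes of 0.27 ± 0.10 and 0.21 ± 0.09 (SE; adjusted p = 0.292 and 0.401, edgeR). Most genes of this list are used by many blood cells. Their summed level was 4191 to 5175 CPM with DEK and 4113 to 4753 CPM with vehicle.

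Of 16 receptor genes 15 were tested and 1 fell within replicate numbers. At an unadjusted p under 0.05 in that fit, 4 were higher and 2 lower (edgeR). Groups did not overlap for 4 of the 15, beside 7.19% of all genes. Of these, Cd63 was lower and Csf2rb, Csf2rb2 and Cd69 were higher with DEK. Their log2 fold changes within replicate numbers were 0.33, 0.34 and 0.26 for the higher genes, which did not pass. Cd63, which encodes a granule membrane protein that appears on the surface of activated basophils, had 185, 179.5 and 164 CPM in the DEK libraries, against 263, 258 and 201 CPM in the vehicle libraries. The groups did not overlap, and within replicate numbers it fell 1.36-fold (log2 fold change -0.44 ± 0.09, SE; adjusted p = 0.0415, edgeR). With all 6 libraries it did not pass without the numbers (adjusted p = 1.0, edgeR), nor, within them, with number 1 left out, while in numbers 1 and 2 alone it fell 1.43-fold (adjusted p = 0.00103, edgeR). Within the numbers and without number 2, 0 of 14013 genes were called, so that fit says nothing about Cd63. Which cells the Cd63 reads came from was not tested. Kit, the receptor for stem cell factor on mast cells and progenitors, had 272, 253 and 154 CPM with DEK, against 305, 262 and 158 CPM with vehicle, with a log2 fold change of -0.10 ± 0.31 (SE).

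Of 12 mediator genes 11 were tested, and 1 fell within replicate numbers. That gene was Hpgds, the prostaglandin D synthase of mast cells and macrophages, with 4.93, 4.04 and 7.57 CPM in the DEK libraries, against 20.4, 21.3 and 17.4 CPM in the vehicle libraries. Each DEK library was below each vehicle library, number 3 included, and within replicate numbers the gene fell 3.67-fold (log2 fold change -1.88 ± 0.23, SE; adjusted p = 0.013, edgeR). Without the numbers it passed in DESeq2 (log2 fold change -1.83, adjusted p = 4.49e-07) but not in edgeR (-1.84, adjusted p = 0.45). Within the numbers it did not pass with number 1 left out (edgeR). With number 2 left out, 0 of 14013 genes were called, so that fit says nothing about Hpgds. Of 8 macrophage markers 7 lay below 0, beside 49.5% of all genes, with a median log2 fold change of -0.53 without the numbers. The most abundant, Adgre1 and Vcam1, lay near 0 (-0.12 ± 0.23 and -0.16 ± 0.22, SE), and Cd163 was above it (0.18 ± 0.63). C1qb, a complement gene picked with its values in view, had the lowest value of the list (-1.39 ± 0.72). It had 1.76, 2.01 and 8.17 CPM with DEK, against 8.56, 5.70 and 17.1 CPM with vehicle. Within replicate numbers 2 of the 8 markers fell, C1qb and C1qc (adjusted p = 0.0107 and 0.0339, edgeR), beside 0.413% of all genes. Groups did not overlap for 1 of the 8, Mrc1 (-1.37 ± 0.49, SE, without the numbers), beside 7.19% of all genes. The part of macrophage content in the level of Hpgds was not tested.

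Of 13 transcription factor genes of these lineages 0 passed, with a median log2 fold change of -0.06. Bhlhe40 and Spi1 had the smallest p within replicate numbers, with log2 fold changes of -0.37 ± 0.09 and 0.29 ± 0.10 (SE; adjusted p = 0.092 and 0.251, edgeR). Gata2, required for mast cells, basophils and stem cells and picked here with its values in view, had 139, 152 and 94.7 CPM in the DEK libraries, against 176, 179 and 81.7 CPM in the vehicle libraries (log2 fold change -0.18 ± 0.34, SE). In numbers 1 and 2 alone, 8 of 64 genes of the 5 lists fell and 1 rose, beside 314 (2.27%) that fell and 327 that rose of all 13809 genes. The gene that rose was C5ar1, of the receptor list (1.48-fold, adjusted p = 0.00106, edgeR). The fall of Mitf, a factor that mast cells depend on, chosen after its value was seen, was 1.56-fold (adjusted p = 0.000657, edgeR).

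**Figure D4:**
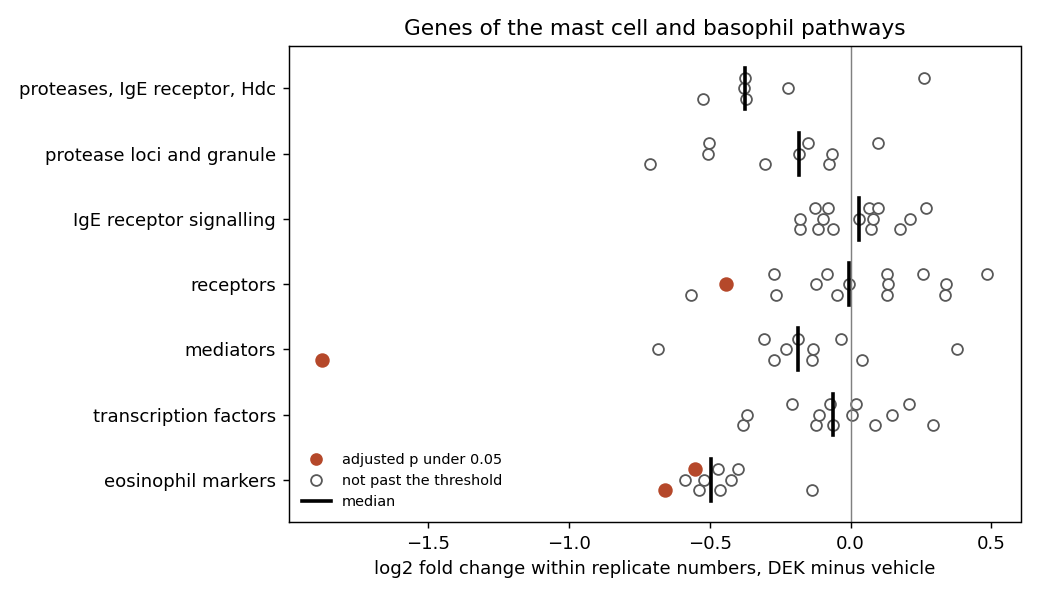
Log2 fold change within replicate numbers, DEK minus vehicle (x axis), of each tested gene, by list (y axis), with the median as a bar and genes with an adjusted p under 0.05 filled. Medians lie at -0.37 for the 6 genes at the top, near 0 for IgE receptor signalling, receptors and transcription factors, and at -0.50 for eosinophil markers.

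Markers of eosinophils, which share precursors with basophils, were also read. All 10 eosinophil markers lay below 0, beside 49.5% of all genes, with a median log2 fold change of -0.49 without the replicate numbers. Within the numbers Epx and Prg3, both granule protein genes, fell (adjusted p = 0.0107 and 0.0382, edgeR), beside 0.413% of all genes. At an unadjusted p under 0.05 in that fit (edgeR), 9 of the 10 were lower, beside 5.42% of all genes. Groups did not overlap for 2 of the 10, beside 7.19% of all genes. The summed level of the 10 markers was 11490, 8407 and 3634 CPM in DEK replicates 1, 2 and 3, against 14720, 13360 and 5023 CPM in vehicle replicates 1, 2 and 3. The sum was lower with DEK in all 3 numbers, and both libraries numbered 3 were the lowest of their group. Within number 3 the median log2 difference was -0.33 for the eosinophil markers and -0.0396 for the 6 basophil and mast cell genes, a contrast that was not tested. Stem and progenitor markers summed to 1140, 984 and 630 CPM with DEK, against 1222, 1149 and 664 CPM with vehicle, and 0 of 8 passed. The part of cell content in the basophil values was not tested.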

How the data were processed

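RNA was measured in 6 libraries, 3 DEK-treated and 3 vehicle-treated. The authors deposited raw read counts per gene. Per the file headers, featureCounts 1.6.1 counted reads over exons grouped by gene on mm10, from 1 alignment per library, with no option for strand, pairs or overlapping genes. The submitters' processing notes name Trim Galore, STAR, HTSeq and edgeR, but the counter of the table used is the one in its header. Exons of the 7 genes overlap no other gene of the table. Depth was 42496076, 49128378 and 48067741 counts in DEK replicates 1 to 3 and 48867857, 38060873 and 34875736 in vehicle replicates 1 to 3.

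R 4.3.3, edgeR 4.0.16, limma 3.58.1 and DESeq2 1.42.0 were used. Of 18049 genes with a read, 13803 passed filterByExpr. Library sizes were scaled by TMM, and edgeR's quasi-likelihood test was run two-sided without a block. Its p-values were adjusted by Benjamini-Hochberg across those 13803 genes, and 0.05 was the threshold. Fold changes are DEK over vehicle. Log2 CPM uses a prior count of 2. The script was tested on simulated data. The genes and lists were chosen with earlier results of these data known. Named list genes were those called, or the 2 with the smallest p, and partners of the 7 in a complex or locus; others were chosen after their values were seen.

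The labels do not say that equal replicate numbers share an animal or day. Deviations from the group means correlated by 0.55, 0.56 and 0.80 for equal numbers 1, 2 and 3, which passed the rule for pairing (over 0.1), but unequal numbers reached 0.52, and number 3 stood apart. The number was therefore fitted as a block as an alternative. The biological coefficient of variation was 33.1% without and 13.1% with the block. Other alternatives were DESeq2, limma-voom, other scalings, no filter and left-out libraries.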

Additional observations from a re-analysis of the deposited data

How the results depend on the processing

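Without the replicate numbers in the fit, edgeR called 0 genes, and so 0 of the 6 of these genes it tested (Tpsb2 was not tested) and 0 genes of the 5 lists. The replicate block gave 177 genes, 0 of the 6 and 2 list genes; DESeq2 gave 51, 0 and 1; limma-voom, DESeq2 size factors, library totals and no filter gave 0 of each. Leaving out 1 library at a time gave 0 to 1 genes and 0 of these genes. With the replicate block and number 1, 2 or 3 left out, 181, 0 and 641 genes, 0, 0 and 6 of these genes, and 0, 0 and 9 list genes were called; the 6 include Tpsb2, which is not counted in the 5 of 6 above. Added after seeing the data, leaving out both libraries numbered 3 without a block gave 168 genes, 2 of these genes and 2 list genes, and no filter with the block gave 349, 1 and 3. The calls of these genes thus rest on leaving out number 3, apart from Mcpt8 with no filter and the replicate block together.

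Mcpt8, Prss34, Cpa3, Fcer1a and Ms4a2 stayed below 0 in all 17 alternatives, Prss34 between -0.71 and -0.06 and Mcpt8 between -0.91 and -0.35. Hdc ran from -0.46 to 0.907 with 1 library left out (the highest without DEK replicate 1, the lowest without DEK replicate 3), and turned to -0.18 without both libraries numbered 3, with and without the block. The DEK minus vehicle difference of the summed level was -526 CPM, -1141 to -195 CPM with 1 library left out, and nearest 0 without vehicle replicate 2. Depth limits Tpsb2, with 0 to 16 reads per library.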
